A study of Rattus norvegicus with 10 samples.

Results

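The Sprouty, Spred, dual-specificity phosphatase and PEA3-type ETS genes that cells switch on in answer to fibroblast growth factor (FGF) and ERK signalling were followed in rat knee cartilage through chemical injury and gene therapy. The 9 genes were taken by symbol from the expression table: Spry1, Spry2, Spry4, Spred1, Spred2, Dusp4, Dusp6, Etv4 and Etv5, out of 17419 transcripts listed. All 9 were in the table, and all 9 passed the filter on low values, which kept 11282 with an average of 0.5 or more FPKM (fragments per kilobase of exon, scaled to the size of the library) for testing.

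Messenger RNA came from cartilage cut off the joint surface with a blade, in 10 libraries. Healthy cartilage without any injection (HC) gave 2 libraries. Cartilage 4 weeks after an injection of papain and L-cysteine (OAC) gave 3 libraries; papain is a protease that strips proteoglycan, and the injection serves as a model of osteoarthritis. Cartilage 10 weeks after the same injection gave 3 libraries from joints that had received an AAV-DJ vector for GFP at week 4 (SHAM), and 2 libraries from joints that had received AAV-DJ vectors for αKlotho and the soluble TGF-beta receptor TGFBR2 together at week 4 (KT). The age label reads 5 months in every group. SHAM differs from OAC both in time and in the vector, and in KT the effects of αKlotho and of TGFBR2 cannot be told apart. Separate animals are not named in any label, so p-values weigh only how far the libraries of a group lie apart, and part of that may be technical.

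FGF receptors act through adaptor proteins and Ras on the kinases RAF, MEK and ERK. ERK activity induces genes whose products hold the same pathway back: Sprouty and Spred proteins restrain Ras and RAF activation, and DUSP6 and DUSP4 remove the activating phosphates from ERK. The ETS factors ETV4 and ETV5 are also induced by FGF signals and carry part of the transcriptional answer. Such genes are often read as output of the pathway. In cartilage FGF receptors govern chondrocyte growth and matrix turnover, and αKlotho is a co-receptor for the hormone FGF23 on FGF receptors.

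The libraries held about 52350000 to 70860000 fragments, of which 32060000 to 44520000 lay on listed genes, as read back from the FPKM steps. The chondrocyte markers Col2a1, Acan, Sox9 and 7 others summed to 8619 to 22286 FPKM per library, and none was at 0 in every library. The Klotho gene Kl stood at 14.2 and 10.3 FPKM in the KT libraries and at 0.011 to 0.073 in the other 8, so it was high only where the labels place the vector. Run names in the authors' command carry 3 distinct tags. Tag 2 occurs in 2 of the 3 OAC libraries and in no other group, and each other group holds tags 1 and 3. The tags could not be tied to single libraries, and for those 2 libraries the tag and OAC cannot be told apart. FPKM of the median gene was 0.14 higher on the log2 scale in OAC than in HC, a shift against which changes in that comparison should be read.

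As levels per length of exon, Etv5, Dusp6 and Spred1 were the highest members in every group, and Dusp4 was the lowest in every group. In HC the means were 11.7 FPKM for Etv5, 10.5 for Dusp6, 9.85 for Spred1, 6.72 for Spry1, 5.67 for Etv4, 4.16 for Spred2, 3.15 for Spry2, 1.84 for Spry4 and 0.223 for Dusp4. The first 3 overlapped between the HC libraries, so their order there was not resolved. Dusp6 led in OAC, SHAM and KT, at 14.9, 13.6 and 16.6 FPKM. Spry2 moved from rank 7 of 9 in HC to rank 4 in KT, and Etv4 from rank 5 in HC to rank 7 in SHAM and KT. Listed exon lengths run from 1023 bases for Spry1 to 4752 for Spry4, and a level depends on the transcript model that was listed.

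**Figure D1:**
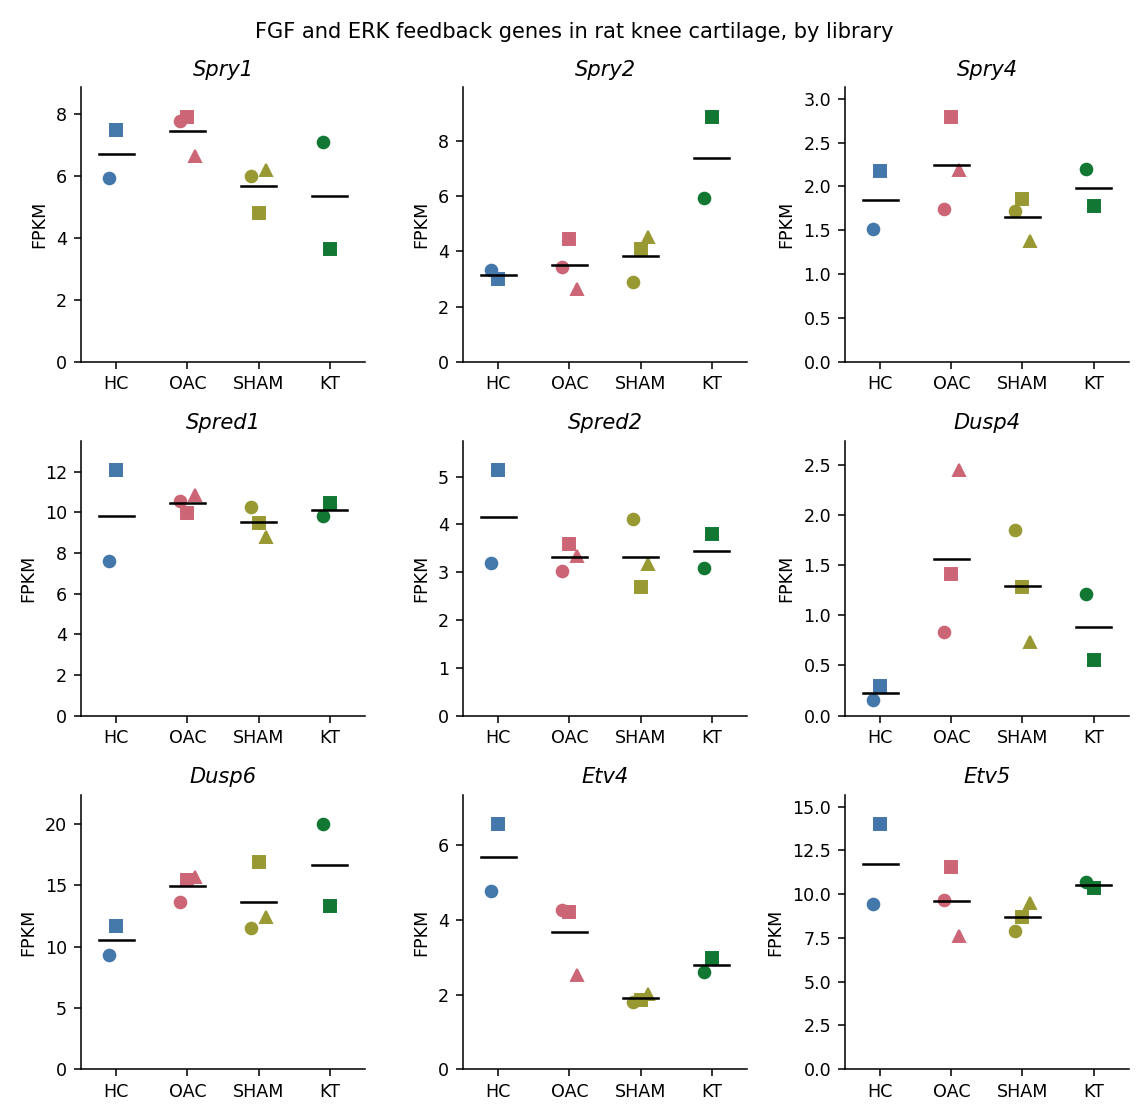
FPKM (vertical axes, from 0) of the 9 genes in each library of HC, OAC, SHAM and KT. Circles, squares and triangles are replicates 1, 2 and 3, and black lines are group means; Etv4 is lowest in SHAM (1.81 to 2.03), Dusp4 is lowest in HC (0.152 and 0.294) and Spry2 is highest in KT (5.91 and 8.87).

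Whether a gene's level differed anywhere among the 4 groups was asked first, with limma's moderated F test. It called 2 of the 9 members, Etv4 (adjusted p = 0.011) and Spry2 (adjusted p = 0.04), against 24.8% of all genes tested, so the members were not called more often than genes at large. All calls here and below are at a Benjamini-Hochberg adjusted p under 0.05 over all 11282 genes. Dusp4 missed (limma, adjusted p = 0.10), and the other 6 lay between 0.197 and 0.857. In this bulk tissue, fewer cells of a type and less RNA per cell cannot be told apart.

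The ETS factor Etv4 was lower in cartilage 10 weeks after papain than in healthy cartilage, with either vector. Etv4 (NM_001108299, chromosome 10 from 89685058 to 89700283 in rn6, minus strand) encodes a PEA3-family activator. Its level was 4.78 and 6.57 FPKM in the HC libraries, 4.27, 4.20 and 2.53 in OAC, 1.81, 1.87 and 2.03 in SHAM, and 2.60 and 2.98 in KT. The HC libraries stood above all 8 others, the SHAM libraries stood below all others, and the KT libraries overlapped with OAC. From 219 to 829 fragments per library lay behind these values. The 10 chondrocyte markers summed to 13264.5 and 22285.8 FPKM in the HC libraries, 11204.9 to 11514.9 in OAC, 8619.3 to 11767.1 in SHAM and 10957.3 and 13495.6 in KT, so the SHAM and OAC sums lay below both HC sums and KT overlapped. In SHAM against HC 2 of the 10 markers rose, Col2a1 and Col9a1, and 1 fell, Chad. Chad alone averaged 11640 FPKM in HC and 3576 in SHAM, a large part of the sums. The part of these markers in the Etv4 difference was not tested.

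From HC to SHAM, Etv4 fell from a mean of 5.67 ± 1.26 FPKM (SD, n = 2) to 1.90 ± 0.115 (SD, n = 3), which is 0.335 of the healthy level. The log2 change was -1.19 ± 0.19 (SE; limma, adjusted p = 0.0028). From HC to KT it fell to 2.79 ± 0.266 FPKM (SD, n = 2), a log2 change of -0.81 ± 0.21 (SE; limma, adjusted p = 0.03). That second call ended without HC replicate 2 (adjusted p = 0.11), KT replicate 1 (0.12) or KT replicate 2 (0.077), and with array weights (0.16), while the SHAM call held in all 21 alternative settings.

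The other pairs of groups were not called for Etv4. OAC averaged 3.67 ± 0.985 FPKM (SD, n = 3), with a log2 difference from HC of -0.53 ± 0.19 (SE; limma, adjusted p = 0.066), or -0.66 relative to the median gene. With median-of-ratios scaling, which removes that shift, the difference was -0.68 and passed (limma, adjusted p = 0.028). SHAM differed from OAC by -0.66 ± 0.17 (SE; limma, adjusted p = 0.17), and KT from SHAM by 0.38 ± 0.19 (SE; limma, adjusted p = 0.39). In the authors' deposited table, Etv4 was higher in OAC than in SHAM by a log2 fold change of 0.91 (adjusted p = 0.0053). The same authors' deposited table has it higher in HC than in OAC by 0.82 (adjusted p = 0.033) and higher in HC than in SHAM by 1.72 (adjusted p = 3.3e-11), and lists 0.59 for KT over SHAM (adjusted p = 0.16).

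Etv5, the close relative of Etv4 (NM_001107082, chromosome 11 from 82194657 to 82252139, plus strand), passed in no comparison by limma. It ranged from 9.45 to 14.0 FPKM in HC, 7.60 to 11.5 in OAC, 7.92 to 9.51 in SHAM and 10.4 to 10.7 in KT. Both KT libraries lay above all 3 SHAM libraries, but HC overlapped with the other 3 groups. Its log2 difference of SHAM from HC was -0.37, with a 95% interval from -0.79 to 0.06 (limma, adjusted p = 0.18). The authors' deposited table has Etv5 higher in HC than in SHAM by 0.57 (adjusted p = 0.048). Without HC replicate 1, limma called it lower in SHAM, at -0.63 (adjusted p = 0.046).

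Among the ERK phosphatases, Dusp4 was higher 4 weeks after papain. Dusp4 (NM_022199, chromosome 16 from 61080767 to 61090973, minus strand) encodes a nuclear phosphatase of ERK and related kinases. It stood at 0.152 and 0.294 FPKM in HC, 0.835, 1.41 and 2.45 in OAC, 1.86, 1.28 and 0.730 in SHAM, and 1.21 and 0.550 in KT. The HC libraries stood below all 8 others, and the other 3 groups overlapped with each other. Only 11 and 19 fragments lay behind the HC values, against 35 to 169 in the others, so counting error is large at the healthy end.

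Dusp4 rose from a mean of 0.223 FPKM (SD 0.10, n = 2) in healthy cartilage to 1.56 ± 0.817 in OAC (SD, n = 3), which is 7.01 times the healthy mean. The log2 change was 1.02 ± 0.30 (SE; limma, adjusted p = 0.031), or 2.28 with a pseudocount of 0.1 FPKM in place of 1 (limma, adjusted p = 0.012) and 2.58 with voom on recovered fragments (adjusted p = 0.039). In SHAM it averaged 1.29 ± 0.564 FPKM (SD, n = 3) and missed against HC at 0.88 ± 0.30 (SE; limma, adjusted p = 0.058), but passed with the smaller pseudocount (adjusted p = 0.02). The KT mean of 0.882 ± 0.469 FPKM (SD, n = 2) did not pass against HC (limma, log2 0.60, 95% interval -0.14 to 1.34, adjusted p = 0.22). The authors' deposited table gives Dusp4 as lower in HC than in OAC, at -2.55 (adjusted p = 0.0024), and lower in HC than in SHAM, at -2.31 (adjusted p = 0.0049). The OAC call ended without HC replicate 1 (limma, adjusted p = 0.11), HC replicate 2 (0.067), OAC replicate 2 (0.071) or OAC replicate 3 (0.078).

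Markers of blood and marrow cells were also higher in OAC than in HC. All 9 tested neutrophil and marrow markers rose, and the list of 10 summed to 2025 to 2542 FPKM in HC, 12608 to 16140.0 in OAC, 10179 to 12167 in SHAM and 3648 to 8313 in KT. Macrophage markers rose in 8 of 9 tested cases, with sums of 145 to 157 FPKM in HC, 366 to 461 in OAC, 494 to 686 in SHAM and 572 to 716 in KT. Osteoclast markers rose in 5 of 6 tested cases. Their sums were 206 to 547 FPKM in HC, 1444 to 4686 in OAC, 836 to 2271 in SHAM and 472 to 1713 in KT. Erythroid markers rose in 7 of 7 tested cases and lymphocyte markers in 4 of 8. No marker in these lists was at 0 in every library, and the part of such cells in the Dusp4 difference was not tested.

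Dusp6, the cytoplasmic phosphatase specific to ERK (NM_053883, chromosome 7 from 41475163 to 41479393, plus strand), passed in no comparison. Its level was 9.33 and 11.7 FPKM in HC, 13.6, 15.5 and 15.7 in OAC, 11.5, 16.9 and 12.5 in SHAM, and 19.999 and 13.3 in KT. The OAC and KT libraries lay above both HC libraries, and SHAM overlapped with HC. The log2 difference from HC was 0.47 in OAC (95% interval 0.02 to 0.93; limma, adjusted p = 0.11) and 0.60 in KT (0.10 to 1.10; limma, adjusted p = 0.091). In both intervals the lower limit lies above 0 before correction over genes and for the shift of the median gene, and neither difference passed over all genes. Relative to the median gene the differences were 0.338 in OAC and 0.512 in KT. With median-of-ratios scaling the OAC difference was 0.305 (limma, adjusted p = 0.246). With 1570 to 3447 fragments per library, counting error was small beside the spread between libraries.

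Of the Sprouty genes, Spry2 was higher in cartilage that had received the αKlotho and TGFBR2 vectors than in healthy cartilage. Spry2 (NM_001012046, chromosome 15 from 90172967 to 90175802, minus strand) encodes an inhibitor of receptor signalling to Ras. It stood at 3.31 and 3.00 FPKM in HC, 3.43, 4.44 and 2.65 in OAC, 2.91, 4.07 and 4.51 in SHAM, and 5.91 and 8.87 in KT. Both KT libraries lay above all 8 others, and HC, OAC and SHAM overlapped. From 276 to 865 fragments lay behind the values.

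Spry2 rose from 3.15 ± 0.216 FPKM (SD, n = 2) in healthy cartilage to 7.39 ± 2.09 (SD, n = 2) in KT, which is 2.34 times the healthy mean. The log2 change was 0.99 ± 0.24 (SE; limma, adjusted p = 0.024). The call ended without HC replicate 2 (adjusted p = 0.067) or KT replicate 2 (0.12), and with array weights (0.14).

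The contrast that isolates the 2 vectors from GFP, KT against SHAM, did not pass for Spry2 by limma. KT was 1.93 times the SHAM mean of 3.83 ± 0.829 FPKM (SD, n = 3), a log2 difference of 0.79 ± 0.22 (SE; 95% interval 0.29 to 1.29; limma, adjusted p = 0.18). Against OAC the difference was 0.89 ± 0.22 (SE; limma, adjusted p = 0.13). In the authors' deposited table Spry2 was higher in KT than in SHAM by 1.004 (adjusted p = 0.033). KT against HC and KT against SHAM share the KT libraries. OAC and SHAM differed from HC in Spry2 by 0.10 and 0.20 only, with 95% intervals up to 0.60 and 0.70.

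Fibrous tissue markers were also highest in the KT libraries. The list of 9 summed to 6582 to 7334 FPKM in KT, against 1677 to 3009 in HC, 3116.5 to 5499.6 in OAC and 3447 to 4568 in SHAM. In KT against HC 7 of 9 rose, and in KT against SHAM 2 of 9 rose, the fibrous collagen gene Col3a1 and the proteoglycan gene Lum. None of the 9 was at 0 in every library, and their part in the Spry2 difference was not tested.

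Spry1 and Spry4, the other Sprouty genes expressed here, passed in no comparison. Spry1 (NM_001106427, chromosome 2 from 124400689 to 124405331, plus strand) ranged from 5.94 to 7.49 FPKM in HC, 6.65 to 7.91 in OAC, 4.80 to 6.19 in SHAM and 3.64 to 7.08 in KT. All 3 SHAM libraries lay below the OAC libraries, with a log2 difference of -0.35 (95% interval -0.79 to 0.10; limma, adjusted p = 0.71). The KT libraries were the most unlike pair: replicate 2, the highest library for Spry2, was the lowest of all 10 for Spry1. Spry4 (NM_001106150, chromosome 18 from 32594958 to 32609864, plus strand) stayed between 1.38 and 2.80 FPKM in all libraries, with overlap between every pair of groups. Its log2 differences ran from -0.28 to 0.19 over the 6 comparisons, with 95% limits from -0.63 to 0.57. Spry3, the remaining family member, was listed at 0 in every library.

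The Spred genes, which hold Ras in check together with neurofibromin, had the smallest differences between group means. Spred1 (NM_001047089, chromosome 3 from 108795337 to 108857358, plus strand) averaged 9.85 FPKM in HC, 10.5 in OAC, 9.52 in SHAM and 10.1 in KT. Its log2 differences lay between -0.13 and 0.11 in the 6 comparisons, and their 95% limits between -0.45 and 0.47, so a log2 difference of 1 in either direction was outside every interval. Spred2 (NM_001047094, chromosome 14 from 104191517 to 104290206, plus strand) averaged 4.16, 3.32, 3.32 and 3.45 FPKM in the same order, with log2 differences between -0.24 and 0.05 and limits between -0.67 and 0.48. The widest spread for both came from HC, where replicate 2 held 12.1 FPKM of Spred1 and 5.13 of Spred2 against 7.63 and 3.20 in replicate 1. HC replicate 1 also held the most of the skeletal muscle markers, which summed to 20624 FPKM there and 257 in HC replicate 2. The sum was 3865.6 FPKM in SHAM replicate 3, 211.1 to 916.5 in OAC, and 963.1 and 169.2 in KT. HC replicate 1 is 1 of only 2 libraries in every comparison with HC, and the part of muscle in any difference was not tested. Without HC replicate 2, limma called Spred1 higher in OAC than in HC at a log2 difference of 0.41 (adjusted p = 0.034).

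**Figure D2:**
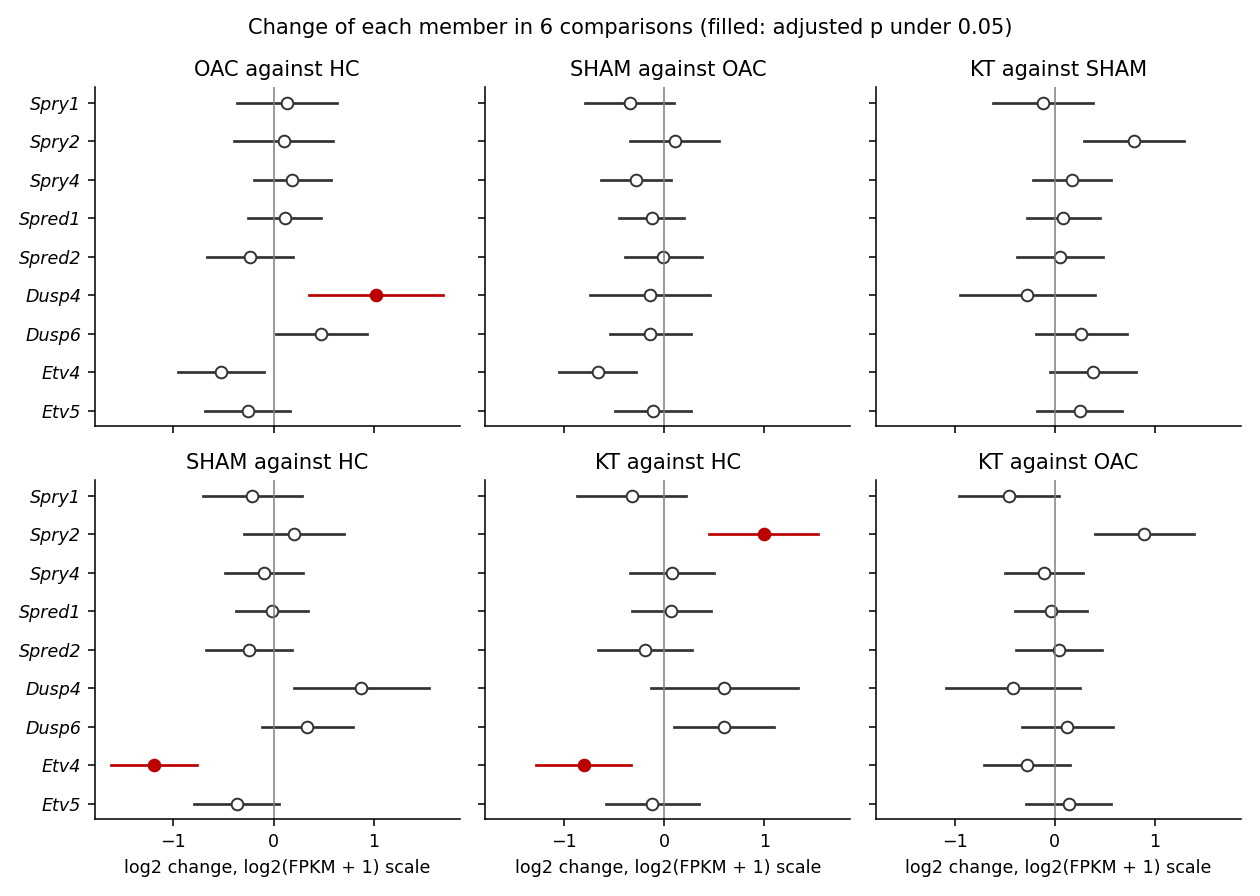
Log2 change of each gene on the log2(FPKM + 1) scale (horizontal axes) in 6 comparisons, first group minus second; points are estimates and bars 95% intervals from limma, before correction over genes. The 4 filled red points passed an adjusted p under 0.05: Dusp4 in OAC against HC, Etv4 in SHAM and in KT against HC, and Spry2 in KT against HC.

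Counted by comparison with healthy cartilage, 1 or 2 of the 9 members passed, near or below the share of all genes. In OAC against HC limma called 1 of 9, Dusp4, against 29.7% of all genes tested, 23.4% higher and 6.27% lower. In SHAM against HC it called 1, Etv4, against 26.5% (21.0% higher and 5.48% lower). In KT against HC it called 2, Spry2 higher and Etv4 lower, against 18.2% (14.3% higher and 3.95% lower). The median log2 change of the 9 members in these comparisons was 0.11, -0.10 and 0.07, beside 0.14, 0.10 and 0.09 for all genes tested. These 3 comparisons share the HC libraries.

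Comparisons among injured joints gave no call of a member by limma. In SHAM against OAC 0 of 9 passed, where 1.16% of all genes did, and only Etv4 had an unadjusted p under 0.05, as did 9.01% of genes. In KT against SHAM 0 of 9 passed against 1.05%, with Spry2 alone below 0.05 unadjusted against 14.6% of genes. In KT against OAC 0 of 9 passed against 0.399%, and Spry2 alone was below 0.05 unadjusted against 18.4%. Voom on recovered fragments also called 0 members in each of these 3. The medians of the 9 members were -0.14, 0.17 and -0.04, beside -0.02, -0.04 and -0.05 for all genes.

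In the authors' deposited table the counts of members with an adjusted p under 0.05 were 2 of 9 for HC and OAC, where 25.7% of genes with a listed fold change passed, and 3 of 9 for HC and SHAM, where 20.5% passed. For OAC and SHAM it was 1 of 9 against 3.63%, and for KT and SHAM 1 of 9 against 3.66%. The members were Dusp4 and Etv4, then Dusp4, Etv4 and Etv5, then Etv4, then Spry2. Of these calls, limma also made those of Dusp4 for HC and OAC and of Etv4 for HC and SHAM.

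Groups that do not overlap were also counted, for OAC against HC and for KT against SHAM. For the other comparisons the share of all genes is not given, so gaps stated above for single members are description only. In OAC against HC, Dusp4 and Dusp6 were higher in every OAC library than in either HC library, 2 of 9 against 41.5% of all genes, and Etv4 was lower in every one, 1 of 9 against 14.7%. In KT against SHAM, Spry2, Etv4 and Etv5 were higher in both KT libraries than in any SHAM library, 3 of 9 against 15.0% of all genes, and 0 of 9 were lower against 17.4%.

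Ratios between related members within a library do not depend on how libraries are scaled. The Etv5 to Etv4 ratio was 1.97 and 2.13 in HC, 2.26 to 3.00 in OAC, 3.48 and 4.11 in KT and 4.38 to 4.69 in SHAM, with no overlap between any of the groups. In these libraries the 2 PEA3-type factors did not keep the same proportion. The Spry1 to Spry2 ratio was 1.80 and 2.50 in HC, 1.78 to 2.51 in OAC, 1.18 to 2.06 in SHAM and 0.41 and 1.20 in KT, so in 1 library, KT replicate 2, Spry2 stood above Spry1. The Dusp6 to Dusp4 ratio was 61.4 and 39.7 in HC and 6.20 to 24.2 in all other libraries. The Spred1 to Spred2 ratio was 2.35 and 2.39 in HC and 2.50 to 3.52 elsewhere. The Spry2 to Spry4 ratio was 1.38 and 2.18 in HC, 1.21 to 1.97 in OAC, 1.69 to 3.28 in SHAM and 2.69 and 5.00 in KT. These ratios are given without a test, and how many other pairs of genes separate the groups was not counted.

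**Figure D3:**
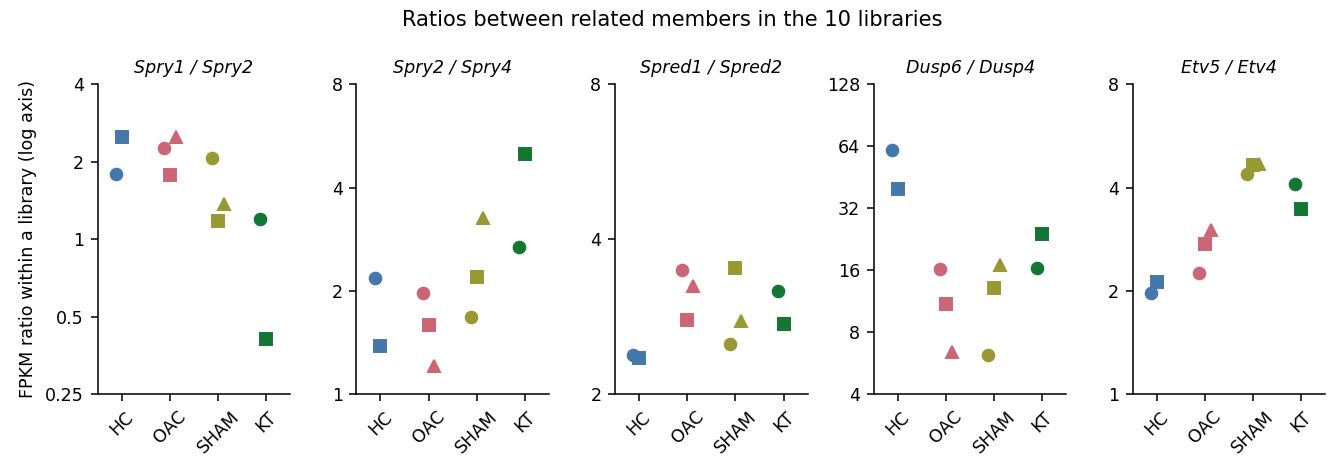
Ratio of FPKM between related members within each library (log axes, 1 panel per pair); circles, squares and triangles are replicates 1, 2 and 3. The Etv5 to Etv4 ratio separates all 4 groups, from 1.97 and 2.13 in HC to 4.38 to 4.69 in SHAM, and the Dusp6 to Dusp4 ratio is highest in HC.

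Genes with the most similar profile were sought for the 3 called members among 10396 named genes averaging 1 FPKM or more. Likeness was the mean absolute difference in log2(FPKM + 1) over the 10 libraries, after each gene was centred on its own mean. Closest to Etv4 were Spon2, a secreted matrix protein (0.12), Gli1, a transcription factor of hedgehog signalling (0.12), and Aldh3a1, an aldehyde dehydrogenase (0.14). Gli1 stood at 13.7 to 19.0 FPKM in HC, 7.74 to 11.9 in OAC, 6.39 to 7.14 in SHAM and 8.29 to 8.60 in KT. Among the closest to Spry2 were Mmd (0.14) and Fam129a (0.14). Closest to Dusp4 were Gla, the lysosomal alpha-galactosidase (0.13), Ostm1, a partner of a lysosomal chloride transporter (0.14), and Rnf128, a ubiquitin ligase (0.14). This scale understates the change of a low gene such as Dusp4. Gla stood at 7.07 to 9.18 FPKM in HC and 13.5 to 22.2 in OAC, and Ostm1 at 5.17 to 5.50 and 9.42 to 14.5. Both rose by a smaller ratio than Dusp4, whose OAC mean was 7.01 times that of HC.

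Genes listed as FGF ligands and receptors that were called between injured and healthy cartilage were lower, apart from Kl in KT. Of 7 tested genes in the ligand list, 1 fell in OAC against HC, 3 in SHAM against HC and 1 in KT against HC, and 0 rose in any of them. The 1 in OAC and in KT was Fgf13, which is not secreted, so no secreted FGF in the list was called there. Fgf13 was also among the 3 in SHAM. Among all genes tested, 6.27, 5.48 and 3.95% fell in these comparisons, and 23.4, 21.0 and 14.3% rose. Fgf13, an intracellular member of the family that is not secreted, was at 4.75 ± 2.35 FPKM in HC (SD, n = 2) and 1.11 ± 0.0959 in OAC (SD, n = 3; limma, adjusted p = 0.0077). In SHAM, Fgf23, the hormone that acts with αKlotho, was at 0.161 FPKM (SD 0.12, n = 3) against 1.47 ± 0.320 in HC (SD, n = 2; limma, adjusted p = 0.021). Fgf23 was not low in KT, at 0.643 and 2.06 FPKM against 1.24 and 1.70 in HC and 0.046 to 0.285 in SHAM. It was not called in KT against HC or SHAM. Fgf9 was at 0.276 FPKM in SHAM against 0.960 in HC (limma, adjusted p = 0.036). Fgf9 passed the filter on low values only through HC, the group where it was high, so its call does not add to the count as support for a fall. Among 8 tested receptors and co-receptors, Fgfr2 fell in all 3 comparisons with HC, from 94.0 ± 33.1 FPKM (SD, n = 2) to 41.8, 43.2 and 37.5 in OAC, SHAM and KT. Fgfr1 and Fgfr3, the receptors most studied in cartilage, passed in none. Kl was the 1 receptor gene that rose in KT, and it passed the filter on low values only through KT.

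Between receptor and ERK, 19 adaptor, Ras and kinase genes were tested. In OAC against HC 6 rose and 1 fell, in SHAM against HC 5 rose and 1 fell, and in KT against HC 2 rose and 1 fell. Among all genes tested, 23.4, 21.0 and 14.3% rose in the same order, and 6.27, 5.48 and 3.95% fell. The median log2 change of the 19 was 0.13, 0.09 and -0.05, beside 0.14, 0.10 and 0.09 for all genes. The small GTPase gene Nras rose in all 3, from 12.1 ± 1.91 FPKM (SD, n = 2) in healthy cartilage to 24.0 in OAC, 21.1 in SHAM and 22.1 in KT (limma, adjusted p = 0.0017, 0.0034 and 0.0063). Araf, a RAF kinase gene, fell in all 3, from 30.1 FPKM in HC to 20.9, 19.3 and 19.8. Rps6ka1, a kinase that ERK activates, rose in OAC and SHAM, to 10.1 and 10.5 FPKM against 4.43. None of the 19 passed in SHAM against OAC, KT against SHAM or KT against OAC by limma, with 0, 2 and 0 of them below an unadjusted p of 0.05.

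Other inhibitors of Ras and ERK went in both directions. Of 11 tested, 2 rose and 1 fell in OAC against HC, 0 rose and 1 fell in SHAM against HC, and 4 rose and 0 fell in KT against HC. Among all genes tested, 23.4, 21.0 and 14.3% rose in the same order, and 6.27, 5.48 and 3.95% fell. Pea15, which keeps ERK in the cytoplasm, was the 1 inhibitor that rose in KT against SHAM, from 35.6 ± 1.74 FPKM (SD, n = 3) to 56.4 ± 0.904 (SD, n = 2; limma, adjusted p = 0.028), and it rose as well against HC (adjusted p = 0.0024) and OAC (adjusted p = 0.018). Spred3, the third Spred gene, was at 0.637 FPKM in HC, 1.14 in OAC and 1.29 in KT, and passed against HC in both (limma, adjusted p = 0.047 and 0.041). Dusp5, a further ERK phosphatase gene, rose from 1.16 FPKM in HC to 2.30 in OAC and in KT (limma, adjusted p = 0.026 and 0.049). Tob1, an antiproliferative gene, fell from 19.6 FPKM in HC to 12.1 in OAC and 12.5 in SHAM.

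Other genes listed as ERK output were mostly higher where they were called, as were genes at large. The list also holds Elk1, Elk3 and Elk4, transcription factor genes that need not be induced by ERK. Of 19 tested, 3 rose in OAC against HC, 3 in SHAM against HC and 5 in KT against HC. The 1 that fell, in KT against HC, was the immediate early gene Egr3 (limma, adjusted p = 0.048). Among all genes tested, 23.4, 21.0 and 14.3% rose in the same order, and 6.27, 5.48 and 3.95% fell. The cyclin gene Ccnd1 rose in all 3, from 10.6 ± 3.06 FPKM (SD, n = 2) in healthy cartilage to 19.7 in OAC, 21.2 in SHAM and 32.2 ± 2.22 in KT (SD, n = 2; limma, adjusted p = 0.014, 0.01 and 0.0039). The immediate early gene Junb rose in SHAM and KT, to 44.2 and 53.8 FPKM against 22.3, and Ier2 and Ier3 rose in KT, to 23.1 and 37.8 FPKM against 12.7 and 20.5. Ier2 stood at 16.0 to 18.9 FPKM in OAC and 17.0 to 19.8 in SHAM, also above both HC libraries, without passing there. The median log2 change of the 19 was 0.12, 0.15 and 0.11, close to the 0.14, 0.10 and 0.09 of all genes. Cell cycle genes were higher in the same groups, with a sum over 9 genes of 39.8 to 67.3 FPKM in HC, 140 to 199 in OAC, 128 to 172 in SHAM and 84.1 to 126 in KT, and their part in the level of Ccnd1 was not tested. Of 5 further dual-specificity phosphatases, grouped here as acting mainly on JNK and p38, 1 rose in OAC and in SHAM against HC. It was Dusp2, a nuclear phosphatase of immune cells that is known to act on ERK as well, at 3.86 and 4.70 FPKM against 1.55. Of 5 tested EGF family genes, 1 rose in SHAM and in KT against HC, Erbb3, at 1.49 and 0.914 FPKM against 0.198.

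**Figure D4:**
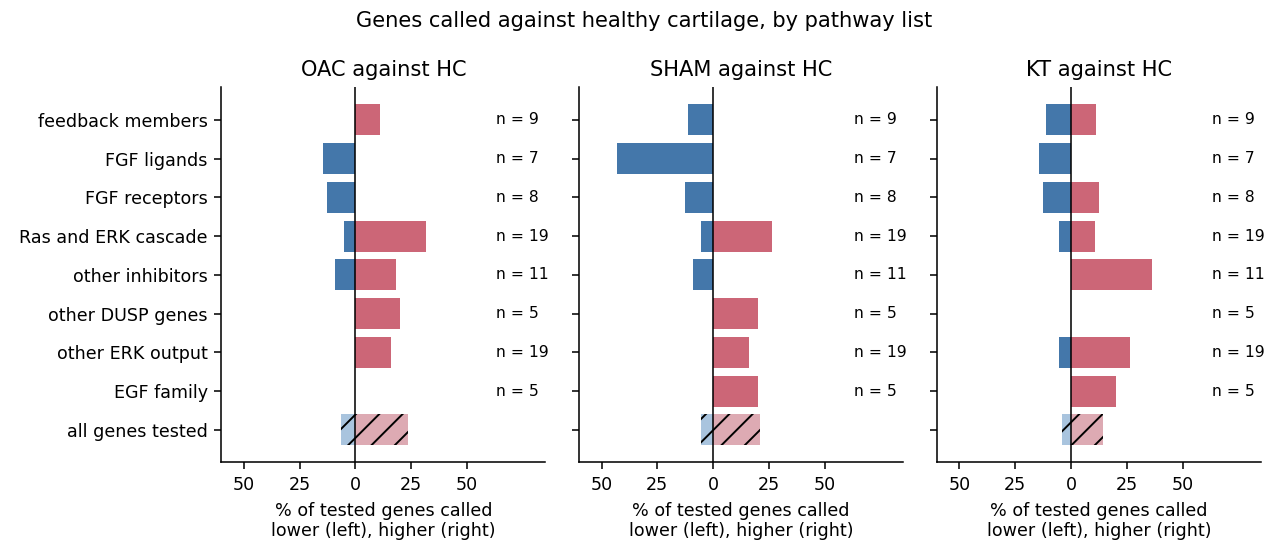
Share of tested genes called lower (left of 0) or higher (right of 0) than in healthy cartilage, in percent, for the 9 feedback genes, 7 lists of pathway genes and all genes tested (hatched); n is the number of genes tested in a list. Genes listed as FGF ligands were called only lower, 1, 3 and 1 of 7. Fgf13, which is not secreted, was the 1 in OAC and in KT and was among the 3 in SHAM, as was Fgf9, which passed the filter on low values only through HC. Genes of the Ras and ERK cascade were called higher in OAC and SHAM in 6 and 5 of 19 cases, beside 23.4 and 21.0% of all genes.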

How the data were processed

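Per the labels' protocols, libraries were stranded and paired-end, made with a TruSeq kit from polyA RNA. In the submitters' processing notes the authors list DESeq2 1.18.1, HOMER, STAR 2.5.3a, FastQC 0.11.2 and the rn6 build. HOMER was run on exons, strand option minus, with 1 transcript kept per gene, per the file headers. The authors deposited FPKM for 17419 transcripts, and a table of log2 fold changes, p-values and adjusted p-values from DESeq2 for 4 pairs of groups. No count table was used here.

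The test was limma-trend (limma 3.58.1, R 4.3.3), two-sided, on log2(FPKM + 1). A single fit held the 10 libraries and no term besides group, and covered the 11282 genes averaging 0.5 FPKM or more. Log2 changes are on that scale, which understates changes of low genes; ratios are of mean FPKM. A gene was called at a Benjamini-Hochberg adjusted p under 0.05. Fragments were recovered from the FPKM step of each library: of values under 3000 bases of exon, 100% lay within 0.15 of a whole number. The script was tested on simulated data. Other settings were pseudocount, filters, scaling, voom, variance options, array weights, 2-group fits, a replicate block and leaving out each library.

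The 9 members and all lists (7 of pathway genes, 11 of cell type markers and 1 of cell cycle genes; 192 of 202 entries in the table) were chosen with earlier results of these data known. Named were the members at any value, up to 4 called genes per pathway list and comparison by size, and the 3 nearest genes of each called member, of which 1 is not reported here. Genes named outside this rule (Fgfr1, Fgfr3, Spry3, Egr3, Kl by library, marker genes) were chosen after their values were seen. The samples share replicate numbers, but same-numbered libraries did not deviate together: correlations over 13 pairs ran from -0.479 to 0.486.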

Additional observations from a re-analysis of the deposited data

How the results depend on the processing

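No called member changed direction in any of 21 alternative settings. Etv4 in SHAM against HC kept its call in 21, Dusp4 in OAC against HC in 14, Spry2 in KT against HC in 17 and Etv4 in KT against HC in 15. Over all 21 settings, kept or not, their log2 changes ran from -1.66 to -0.996, 0.78 to 2.58, 0.74 to 1.25 and -1.11 to -0.61. Small groups and, for Dusp4 in HC, few fragments limit these values. The causes of the shifts below were not tested.

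Of 9 members, the number called in OAC against HC (1) was 2 with median-of-ratios scaling, quantile normalization and voom, and 0 with array weights, with only the 2 groups in the fit and with the replicate block. In SHAM against HC (1) it was 2 with a pseudocount of 0.1. In KT against HC (2) it was 0 with array weights and with 2 groups only, and 1 with the replicate block. For any difference among the 4 groups (2) it was 1 with no filter, array weights, voom and the replicate block. Without single libraries it ran from 0 to 1 in OAC against HC (0 without OAC replicate 2 or 3), 0 to 1 in SHAM against OAC (1, Etv4, without OAC replicate 3), 1 to 2 in SHAM against HC, 0 to 2 in KT against HC (0 without HC replicate 2 or KT replicate 2) and 1 to 3 for any difference.

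Over all genes, array weights gave 1974 calls in OAC against HC (3348), 324 in SHAM against OAC (131), 1628 in SHAM against HC (2986), 493 in KT against HC (2057) and 1515 for any difference (2794). The replicate block gave 2206, 1951, 1116 and 1272 in OAC, SHAM and KT against HC and for any difference, and 13 in KT against OAC (45). Fits of 2 groups gave 73 in KT against SHAM (118), 1970 in SHAM against HC, 10 in KT against HC and 17 in KT against OAC, where voom gave 24 and no filter 20. Without single libraries the counts were 2163 to 3331 in OAC against HC, 54 to 163 in SHAM against OAC, 45 to 122 in KT against SHAM, 1968 to 2969 in SHAM against HC, 972 to 2205 in KT against HC, 4 to 312 in KT against OAC and 1792 to 2835 for any difference. Of the calls in OAC against HC 78.9% were higher, and 56.1% with median-of-ratios scaling; in SHAM and KT against HC the shares were 79.3 and 78.3%, and 57.3 and 57.2%.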
